A study of Caenorhabditis elegans with 43 samples.

Results

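21ur-3287, 21ur-770, 21ur-6420, 21ur-884 and 21ur-7756 are 5 of the 14714 piRNAs annotated on chromosome IV of *C. elegans*, all in the count table under these names. They were chosen from their measured levels as male piRNAs (higher in WT during spermatogenesis than during oogenesis) that depend on SNPC-1.3: high in WT during spermatogenesis, lower in WT during oogenesis and almost lost in *snpc-1.3(-)*. Their differences between these groups are therefore given as descriptions, with no test. The levels in *snpc-1.3(2xtbs)* appear to have gone into the choice as well. 21ur-884 and 21ur-7756 hold ranks 1 and 2 by p-value toward higher levels in that mutant among all 13982 piRNAs tested. 21ur-3287 and 21ur-770 hold ranks 1 and 2 by p-value toward loss in *snpc-1.3(-)* among the 3086 piRNAs both male and lower there. The levels of the members in *snpc-1.3(2xtbs)* are therefore described in the same way, with no test. What the choice did not use are their sequences, their neighbouring piRNAs and the SNPC-1.3 ChIP-seq signal at their loci.

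Small RNA was sequenced from whole worms grown at 20°C in 4 groups. These were *snpc-1.3(-)* at 48 hr, the spermatogenic time point (spe., 2 libraries, allele xk27, labelled snpc-1.3(lof)), WT at 48 hr (N2, 3 libraries), *snpc-1.3(2xtbs)* at 72 hr, the oogenic time point (oog., 3 libraries, allele xk36, labelled snpc-1.3a::3xflag(2xtbs)), and WT at 72 hr (N2, 3 libraries). The null allele carries an early stop codon. In *snpc-1.3(2xtbs)*, 2 sites for TRA-1 upstream of the gene are mutated, and the genotype label gives this allele a 3xFlag tag that N2 lacks. The sample descriptions and the study's text name the worms *snpc-1.3(2xtbs)* without a tag, and which is right was not settled. If the tag was present, it and the site mutations cannot be told apart. SNPC-1.3 ChIP-seq at 48 hr compared worms depleted of SNPC-4, *snpc-1.3::3xflag* worms (allele xk32) and untagged N2, with 2 replicates each. The SNPC-4-depleted worms alone received auxin, 250 uM for 4 hr, and carry ieSi38, a transgene that drives the auxin receptor TIR1 in the germline. Their genotype label names the alleles snpc-4(xk23) and unc-11(ed3) beside it and lists no tagged *snpc-1.3* allele, although their title and description do, and a strain without the tag would lose the signal by itself.

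piRNAs of *C. elegans*, or 21U-RNAs, are short RNAs bound by the Piwi protein PRG-1, which guards the germline against foreign and repetitive sequence. Most are transcribed one by one from small promoters in clusters on chromosome IV, where a core motif lies a short distance upstream of the 5′ end of the mature RNA. SNPC-4, the large DNA-binding subunit of the complex that also transcribes small nuclear RNA genes, occupies these clusters. SNPC-1.3 is one of the worm's counterparts of the SNAPC1 subunit of that complex. TRA-1 is the transcription factor at the end of the sex determination pathway and promotes female fates.

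All 5 loci lie in the larger of the 2 piRNA clusters of chromosome IV, which holds 11388 annotated piRNAs. In the WBcel235 build, 21ur-3287 (WBGene00046193) lies on the plus strand at chrIV:16251565-16251585, in intron 3 of the protein-coding gene F38C2.1. 21ur-770 (WBGene00045530) lies on the minus strand at chrIV:16391830-16391850 and 21ur-6420 (WBGene00174551) on the minus strand at chrIV:16473712-16473732, both between genes. 21ur-884 (WBGene00048858) lies on the minus strand at chrIV:14828813-14828833, in intron 1 of *hhat-2*, and 21ur-7756 (WBGene00168908) on the minus strand at chrIV:13613436-13613456, in intron 6 of the pseudogene C08F11.14. Each host gene lies on the same strand as its piRNA and held few small RNA counts of its own, between 0 and 20 per library. The closest 2 members, 21ur-770 and 21ur-6420, are 81.9 kb apart.

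The sequences of the 5 loci are shown because the upstream motif is what these piRNAs were not chosen for. Each line gives the 60 nt upstream and then the mature piRNA, from the RefSeq WBcel235 genome, and capitals mark the 8 nt closest to the motif CNGTTTCA and the 21 nt of the mature RNA.
21ur-3287 (plus strand, chrIV:16251505-16251585): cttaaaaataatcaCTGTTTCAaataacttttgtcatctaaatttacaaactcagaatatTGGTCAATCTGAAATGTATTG
21ur-770 (minus strand, chrIV:16391830-16391910): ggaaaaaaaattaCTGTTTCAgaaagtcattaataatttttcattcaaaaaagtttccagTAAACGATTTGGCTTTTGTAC
21ur-6420 (minus strand, chrIV:16473712-16473792): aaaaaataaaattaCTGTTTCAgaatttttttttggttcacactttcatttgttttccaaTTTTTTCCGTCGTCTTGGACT
21ur-884 (minus strand, chrIV:14828813-14828893): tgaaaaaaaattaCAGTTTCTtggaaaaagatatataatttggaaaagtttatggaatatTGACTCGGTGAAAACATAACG
21ur-7756 (minus strand, chrIV:13613436-13613516): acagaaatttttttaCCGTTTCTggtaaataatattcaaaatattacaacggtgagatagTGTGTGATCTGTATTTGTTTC

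All 5 mature RNAs are 21 nt long and begin with T in the genome, that is with U in the RNA, as do 96.2% of the 14714 annotated piRNAs. Each 21 nt sequence occurs at 1 place in the genome (both strands, exact match). The search for GTTTCA, the constant part of the motif, on the piRNA's own strand found it upstream of 21ur-3287, 21ur-770 and 21ur-6420, starting 44, 45 and 44 nt before the 5′ end. It is present in 64.7% of all upstream regions of the same length. Among the 3086 piRNAs both male and called lower in *snpc-1.3(-)*, as the members are, the share is 83.6%. The reverse complement TGAAAC, present in 3.64% of all upstream regions, was found at none of the 5. 21ur-3287, 21ur-770 and 21ur-6420 carry CTGTTTCA, which 34.7% of all regions and 57.4% of those of the 3086 hold.

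21ur-884 and 21ur-7756 have CAGTTTCT and CCGTTTCT at the same place, starting 47 and 45 nt before the 5′ end. Counted from position 1 of CNGTTTCA, both differ from it by A8T. CNGTTTCT, searched for after the sequences had been seen, is present in 3.96% of all upstream regions (reverse complement AGAAACNG, 0.53%), against 49.3% for CNGTTTCA (reverse complement TGAAACNG, 1.28%). Among the 3086 male piRNAs called lower in *snpc-1.3(-)*, 6.25% have CNGTTTCT and 78.7% CNGTTTCA. 21ur-884 and 21ur-7756 are also the 2 members with the highest levels in *snpc-1.3(2xtbs)* relative to WT, by which they appear to have been chosen. Whether the A8T difference goes with those levels was not tested. Upstream of 21ur-770 and 21ur-6420 the same 18 nt run, aaaattactgtttcagaa, includes the motif and starts 54 and 53 nt before the 5′ ends. Of all upstream regions, 10 hold this run, 6 of them at male piRNAs called lower in *snpc-1.3(-)*, and 0 hold its reverse complement. The upstream regions of the 5 members were 73.3% to 80.0% A and T.

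Library depth sets how well these piRNAs could be counted. Between 4336397 and 22346249 counts per library fell on annotated features, and 466066 to 3061763 of them on chromosome IV piRNAs. Levels are given as CPM, the count scaled by the chromosome IV piRNA counts of its library and a TMM factor. All members are 21 nt long, but how well each sequence was captured in the libraries was not measured. Abundance compared between piRNAs below therefore means CPM, not the number of molecules. Small RNA counts on *snpc-1.3* itself were 0 and 1 in the null mutant and 1 to 5 in WT spe., too few to check the genotype. The 48 hr and 72 hr libraries were sequenced on different flow cells, so that stage and flow cell cannot be told apart. In whole worms, fewer cells of a kind and less RNA per cell cannot be told apart. The study calls the small RNA replicates of the *snpc-1.3(2xtbs)* experiment biological, and no source used here says that they were separate cultures, so p-values measure only the spread between these samples.

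During spermatogenesis, 21ur-3287 was nearly absent from *snpc-1.3(-)*, with 5.91 and 5.79 CPM, against 1100, 1320 and 1528 CPM in WT spe. In WT spe. this put it at ranks 83, 88 and 27 of the 13982 piRNAs by library. 21ur-770 stood at 5.91 and 8.10 CPM in *snpc-1.3(-)*, against 1197, 1847 and 1317 CPM in WT spe., with ranks of 65, 39 and 45. These 2 abundant piRNAs were thus carried by 8 and 10 reads in both mutant libraries together, against 3131 and 3617 reads in the 3 WT spe. libraries.

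21ur-6420 had 11.8 and 10.4 CPM in *snpc-1.3(-)*, against 582, 735 and 365 CPM in WT spe. 21ur-884 had 7.88 and 4.63 CPM in *snpc-1.3(-)*, against 413, 546 and 324 CPM in WT spe. Both were less abundant in WT than the first 2, and 21ur-6420 kept the highest level of the 5 in both mutant libraries. 21ur-7756 was far lower throughout, with 0 and 2.31 CPM in *snpc-1.3(-)*, against 45.3, 101 and 54.2 CPM in WT spe. Its 0 in the first mutant library is a count of 0, which allows up to 5.91 CPM (3 counts).

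The pooled counts give the level left in *snpc-1.3(-)* as a share of WT spe., with exact 95% intervals that cover counting error only. It was 0.44% (0.19 to 0.87%) for 21ur-3287 and 0.48% (0.23 to 0.88%) for 21ur-770. For 21ur-6420 it was 1.85% (1.03 to 3.07%) and for 21ur-884 1.3% (0.56 to 2.57%). For 21ur-7756, with 2 counts in the mutant, it was 2.00% (0.24 to 7.34%), an interval that overlaps those of all the others. The interval of 21ur-6420 lies above those of 21ur-3287 and 21ur-770, and all other pairs of intervals overlap.

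In edgeR's fit the log2 fold changes of *snpc-1.3(-)* over WT spe. were −7.80 (standard error 0.44) for 21ur-3287, −7.63 (0.43) for 21ur-770, −5.67 (0.39) for 21ur-6420, −6.17 (0.42) for 21ur-884 and −5.48 (0.62) for 21ur-7756. The value of 21ur-7756 rests on 1 library, being −4.84 without mutant replicate 1 and −9.69 without mutant replicate 2, where only the count of 0 is left. All 5 were among the 23.7% of tested piRNAs called lower in the mutant, which the choice of members fixed. No mutant library overlapped a WT spe. library for any of the 5, as for 27.8% of all piRNAs tested.

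The 5 are not the 5 most depleted male piRNAs. Of 3086 piRNAs both male and called lower in the null mutant, ordered by p-value, 21ur-3287 and 21ur-770 hold ranks 1 and 2, 21ur-6420 rank 31, 21ur-884 rank 34 and 21ur-7756 rank 540. Ordered by fold change they hold ranks 212, 238, 837, 645 and 927, since many piRNAs of low abundance had larger fitted changes. Of the 778 with at least 100 CPM in WT spe., 21ur-3287, 21ur-770, 21ur-884 and 21ur-6420 hold ranks 25, 27, 76 and 105 by fold change. 21ur-7756, with a WT spe. mean of 66.8 CPM, is not among the 778. Just outside the first 2 by p-value stand 21ur-2592 (12.6 ± 6.70 CPM in *snpc-1.3(-)*, SD, n = 2, and 1930 ± 175 CPM in WT spe., SD, n = 3) and 21ur-6004 (11.6 ± 8.09 and 1320 ± 193 CPM in the same groups).

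**Figure D1:**
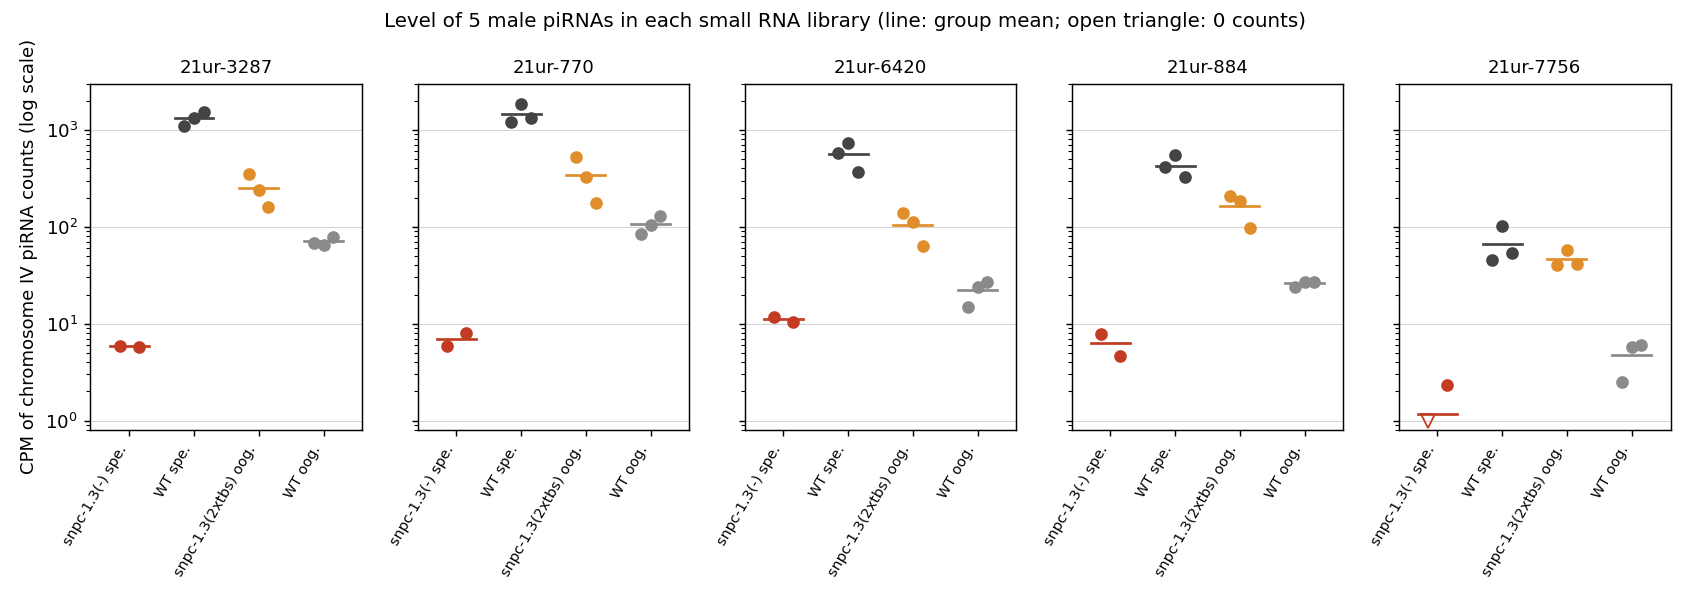
Level of each of the 5 piRNAs in every small RNA library, in CPM of chromosome IV piRNA counts on a log axis; points are libraries, lines are group means, and the open triangle is the library with 0 counts, drawn at the foot of the axis. In each panel the 2 *snpc-1.3(-)* libraries lie lowest and the *snpc-1.3(2xtbs)* libraries lie above all WT oog. libraries, and 21ur-7756 is the piRNA whose *snpc-1.3(2xtbs)* and WT spe. libraries overlap.

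At 72 hr the members were not absent from WT. 21ur-3287 was at 68.6, 64.7 and 78.4 CPM and 21ur-770 at 84.5, 104 and 128 CPM in WT oog. 21ur-6420 was at 14.9, 24.1 and 27.0 CPM, and 21ur-884 at 23.9, 27.2 and 27.0 CPM. 21ur-7756, at 2.49, 5.80 and 6.09 CPM, rested on 5 to 13 reads per library. The WT oog. means were 3.93% (21ur-6420) to 7.27% (21ur-770) of the WT spe. means, and every WT spe. library lay above every WT oog. library for all 5, as for 26.2% of piRNAs tested. The fitted log2 fold changes of WT spe. over WT oog. were 4.22 (standard error 0.26) for 21ur-3287, 3.79 (0.26) for 21ur-770, 4.68 (0.27) for 21ur-6420, 4.04 (0.26) for 21ur-884 and 3.83 (0.35) for 21ur-7756, and 25.5% of piRNAs tested were called higher in WT spe. The order of the WT oog. levels, from 21ur-770 down to 21ur-7756, had 21ur-884 and 21ur-6420 within each other's spread (26.1 ± 1.89 and 22 ± 6.33 CPM, SD, n = 3), and otherwise neighbours in the order did not overlap.

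What was left in *snpc-1.3(-)* at 48 hr lay below the WT oog. mean for 21ur-3287, 21ur-770, 21ur-884 and 21ur-6420. Each mutant library held 0.0837 and 0.0819 times the WT oog. mean for 21ur-3287, 0.0559 and 0.0766 times for 21ur-770, and 0.303 and 0.178 times for 21ur-884. For 21ur-6420 the factors were nearer to 1, at 0.537 and 0.473. For 21ur-7756 no such statement can be made, since the 0 in mutant replicate 1 allows up to 5.91 CPM, above its WT oog. mean of 4.79 CPM. This sets different time points and flow cells side by side and carries no test.

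In *snpc-1.3(2xtbs)* at 72 hr all 5 stood between their WT levels of the 2 stages, or up to the spermatogenic one. 21ur-3287 reached 353, 239 and 159 CPM, and 21ur-770 reached 528, 323 and 178 CPM. Relative to the WT oog. mean these were 5.01, 3.38 and 2.25 times for 21ur-3287 and 5.00, 3.06 and 1.68 times for 21ur-770. The lowest *snpc-1.3(2xtbs)* library of each was still above the highest WT oog. library, as it was for all 5 members and for 16.9% of piRNAs tested.

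21ur-6420 had 140, 113 and 63.6 CPM and 21ur-884 had 210, 184 and 96.7 CPM in *snpc-1.3(2xtbs)*. 21ur-7756 had 40.5, 57.7 and 41.1 CPM, which overlaps its WT spe. range of 45.3 to 101 CPM. As a share of the WT spe. mean, the *snpc-1.3(2xtbs)* mean was 19.0% for 21ur-3287, 23.6% for 21ur-770, 18.8% for 21ur-6420, 38.2% for 21ur-884 and 69.5% for 21ur-7756. The *snpc-1.3(2xtbs)* and WT spe. libraries overlapped for 21ur-7756 and lay apart for the other 4. This too sets different time points and flow cells side by side, and the shares depend on the scaling. For 21ur-7756, the log2 fold changes of *snpc-1.3(2xtbs)* and of WT spe. over WT oog. were 2.77 and 2.92 with miRNA totals. They were 3.32 and 4.57 with RLE scaling, and 3.27 and 3.83 with TMM.

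The 3 *snpc-1.3(2xtbs)* libraries differed among themselves. Replicate 1 was highest and replicate 3 lowest for 21ur-3287, 21ur-770, 21ur-6420 and 21ur-884, and 21ur-7756 was highest in replicate 2. Over the 2146 other male piRNAs with at least 10 CPM, the median log2 change over the WT oog. mean was 1.12, 0.97 and 0.77 in replicates 1, 2 and 3, so the same order ran through the class. The log2 values of the 4 members with this order fell further between replicates 1 and 3, from 2.32 to 0.75 for 21ur-770. A median over many piRNAs varies less than 1 piRNA, so this does not set the members apart. The spread of single male piRNAs was not computed.

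**Figure D2:**
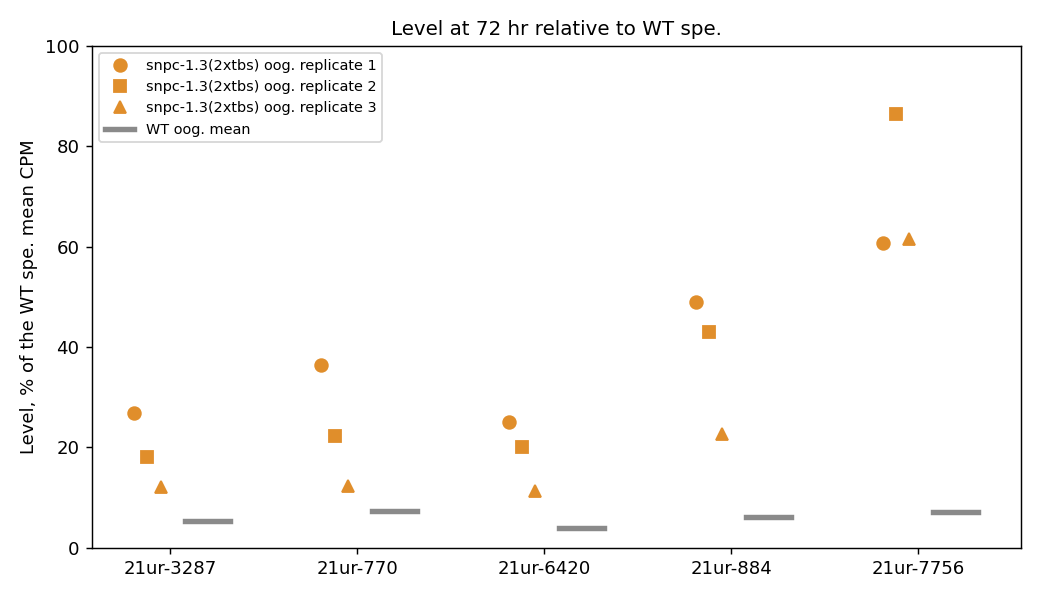
Level of each piRNA at 72 hr as a percentage of its WT spe. mean; symbols are the 3 *snpc-1.3(2xtbs)* libraries and the bars are the WT oog. means. The *snpc-1.3(2xtbs)* libraries run from 11.3% (21ur-6420) to 86.4% (21ur-7756), and the WT oog. means from 3.93% to 7.27%.

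The fitted log2 fold changes of *snpc-1.3(2xtbs)* over WT oog. were 1.83 (standard error 0.24) for 21ur-3287, 1.71 (0.24) for 21ur-770, 2.28 (0.26) for 21ur-6420, 2.65 (0.25) for 21ur-884 and 3.27 (0.34) for 21ur-7756. All 5 were among the 11.3% of tested piRNAs called higher, and by the size of the fold change they held ranks 736, 915, 328, 188 and 51. Of the 3563 male piRNAs, 42.6% were called higher, and their median log2 fold change was 1.03, below the value of each member. Since the choice of members appears to have used these levels, this does not set them apart from their class. The study chose 3 other male piRNAs for Taqman qPCR. On the log2 scale they rose by 1.50 (21ur-1258, adjusted p = 1.69e-08), 0.99 (21ur-3142, adjusted p = 0.00208) and 1.15 (21ur-3766, adjusted p = 4.04e-05) in edgeR's test. The 3 female piRNAs so chosen had log2 fold changes of −0.11 (21ur-1848), −0.22 (21ur-2502) and −0.21 (21ur-4817), with edgeR adjusted p-values of 0.829, 0.596 and 0.596. By Taqman qPCR the study reports lower female piRNA levels in this mutant during oogenesis. It also set the thresholds used here by comparison with its Taqman results for these male and female piRNAs.

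The profiles of the 5 over all 11 libraries were alike, which their choice brought about. Pearson's r of log2(CPM + 1) between pairs of members ran from 0.903 to 0.994 over 10 pairs, with the same libraries, depth and scaling behind every point. 21ur-7756 was least like the mean of the other 4 (r = 0.929) and 21ur-884 most (r = 0.988). Among 6931 other piRNAs with at least 100 counts, the highest r with the mean profile of the 5 belonged to 21ur-2135 (0.997), 21ur-833 (0.996), 21ur-7831 (0.995), and the overlapping pair 21ur-2514 and 21ur-14692 (0.995 each), which have identical counts and cannot be separated. 21ur-2135 had 15.4 ± 0.51 CPM in *snpc-1.3(-)* (SD, n = 2), and 504 ± 15.6 CPM in WT spe. (SD, n = 3). At 72 hr it stood at 200 ± 54.2 CPM in *snpc-1.3(2xtbs)*, against a WT level of 60.7 ± 10.2 CPM (SD, 3 libraries each).

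The neighbours of the members were looked at next, since they share the locus but were not chosen by their levels. Distances run between 5′ ends, and above and below mean toward higher and lower coordinates. Within 1 kb lie 28 annotated piRNAs, 26 of which had a count. Because some overlap and have identical counts, these stand for 22 distinct sets of counts. In *snpc-1.3(-)*, 8 of the 22 fell and 5 rose relative to WT spe. in edgeR's test (adjusted over all 13982 piRNAs), beside 23.7% and 25.6% of all piRNAs tested. Scaling by miRNA totals in place of TMM moved that background, with 3779 piRNAs called lower and 1961 higher, against 3313 and 3576 with TMM. The remaining 9 neighbours did not pass. With TMM, neighbours that passed thus moved in both directions, as the piRNAs tested did as a whole. That the members all went down was fixed by their choice. Of the neighbours that rose, 21ur-2870, 21ur-4983 and the overlapping 21ur-1007 and 21ur-13296 lost their calls in several alternatives. Each did so with RLE scaling, miRNA totals, DESeq2 and only the groups compared. Neighbours that fell kept their calls under these choices, though some lost them when a library was left out. 21ur-3117 and the overlapping 21ur-5257, 21ur-2978 and 21ur-14904 rose in all 18 alternatives.

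21ur-770 has the most mixed surroundings. The nearest piRNA above it, 21ur-3117, lies on the opposite strand, with 141 nt between the motifs of the 2, and rose to 176 ± 15.4 CPM in *snpc-1.3(-)* (SD, n = 2), against 42.8 ± 11.9 CPM in WT spe. (SD, n = 3), by 2.00 on the log2 scale (edgeR, standard error 0.28, adjusted p = 1.45e-11). The overlapping 21ur-5257, 21ur-2978 and 21ur-14904, 692 to 696 bp below it, have identical counts and rose to 2900 ± 822 CPM in the mutant, against 821 ± 131 CPM in WT spe. (log2 fold change 1.82, edgeR, standard error 0.27, adjusted p = 2.98e-10). Between them and 21ur-770, 21ur-7276 lies 509 bp below on the same strand and fell to 2.31 ± 3.27 CPM, against 27.0 ± 2.95 CPM in WT spe. (log2 fold change −3.19, edgeR, standard error 0.69, adjusted p = 1.57e-05). That change was −2.51 without mutant replicate 1 and −8.32 without mutant replicate 2. 21ur-8504, 889 bp above and named here after its values were seen, fell by 4.56 (edgeR, adjusted p = 6.95e-18). These 4 sets of counts kept their calls in all 18 alternatives tried.

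The upstream motifs of these neighbours are shown because the loci lie so close together, in the layout used for the members.
21ur-3117 (plus strand, chrIV:16392025-16392105): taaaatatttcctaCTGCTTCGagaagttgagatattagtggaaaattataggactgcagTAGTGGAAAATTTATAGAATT
21ur-5257 (plus strand, chrIV:16391094-16391174): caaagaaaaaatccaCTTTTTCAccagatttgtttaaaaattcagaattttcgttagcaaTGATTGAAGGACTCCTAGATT
21ur-7276 (minus strand, chrIV:16391321-16391401): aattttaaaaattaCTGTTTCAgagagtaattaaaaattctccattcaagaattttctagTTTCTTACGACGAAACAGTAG
The 2 that rose have CTGCTTCG and CTTTTTCA and no GTTTCA in the window, and the one that fell has CTGTTTCA, as 21ur-770 does. Motif and direction did not go together over all neighbours. 21ur-8504 and the overlapping 21ur-12867 and 21ur-9234 (log2 fold change −3.87), the last 2 named after their values were seen, have CTGTTTCG and fell. 21ur-4983 near 21ur-6420 and 21ur-1007 near 21ur-7756 have CTGTTTCA and rose, calls that were lost in 6 and 5 of 18 alternatives.

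21ur-7756 has a close divergent neighbour. 21ur-11435 starts 112 bp above it on the opposite strand, so that the upstream regions of the 2 overlap and 18 nt separate the motifs, CCGTTTCT for 21ur-7756 and ATGTTTCA for 21ur-11435. 21ur-11435 was lower in WT spe. than in WT oog. (WT spe. minus WT oog. on the log2 scale −1.54, edgeR, adjusted p = 0.00846), the opposite of 21ur-7756 at 3.83. It had 146 counts in all libraries together, and no alternatives were run for neighbours between the stages. Across all piRNAs, RLE scaling moved that comparison by a median of 0.73. In *snpc-1.3(-)* its change was 1.12 (edgeR, standard error 0.69, adjusted p = 0.175), which did not pass. The overlapping 21ur-1007 and 21ur-13296, 199 and 196 bp below, share their counts and rose in the mutant by 1.44 (edgeR, standard error 0.45, adjusted p = 0.00384), a call lost in 5 of 18 alternatives.
21ur-11435 (plus strand, chrIV:13613508-13613588): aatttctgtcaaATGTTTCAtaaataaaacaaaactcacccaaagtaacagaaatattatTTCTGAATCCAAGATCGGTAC

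Around 21ur-3287 all 4 neighbours lie on the opposite strand, 1 rose and the other 3 did not pass. 21ur-2870, 765 bp above, rose to 43.3 ± 5.62 CPM in *snpc-1.3(-)* (SD, n = 2), against 15.7 ± 3.6 CPM in WT spe. (SD, n = 3), by 1.45 on the log2 scale (edgeR, standard error 0.39, adjusted p = 0.000678). That call was lost in 4 of 18 alternatives, where the change was as low as 0.73. The nearest, 21ur-1774, 307 bp below, had 11 counts in all libraries together and did not pass.

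Around 21ur-6420 the neighbours that passed mostly fell. On the log2 scale 21ur-3304, 317 bp below, fell by 3.38 (edgeR, standard error 0.52, adjusted p = 6.08e-10). 21ur-209, 709 bp below, fell by 1.75 (edgeR, standard error 0.33, adjusted p = 3.64e-07). Both were named after their values were seen and kept their calls in all 18 alternatives. 21ur-6291, 139 bp below on the opposite strand, had no count in *snpc-1.3(-)* and 4.54 ± 2.84 CPM in WT spe. (SD, n = 3), with an edgeR adjusted p of 0.0260 that rested on few reads and was lost in 4 of 17 alternatives. 21ur-14708, 140 bp above, had 5 counts in all. The most abundant neighbour, 21ur-4983 at 731 bp above, carries CTGTTTCA too and stood at 389 ± 20.8 CPM in *snpc-1.3(-)* (SD, n = 2) and 231 ± 31.1 CPM in WT spe. (SD, n = 3). Its log2 fold change of 0.75 (edgeR, standard error 0.26, adjusted p = 0.00847) was lost in 6 of 18 alternatives and was −0.01 with miRNA totals as the scale.

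21ur-884 stands more alone. No piRNA is annotated within 1 kb below it, and of the 4 above it 2 had no count. 21ur-6425, 596 bp above, fell by 0.71 in *snpc-1.3(-)* (edgeR, standard error 0.27, adjusted p = 0.0210), to 114 ± 0.18 CPM (SD, n = 2), against 186 ± 40.8 CPM in WT spe. (SD, n = 3), and this call was lost in 4 of 18 alternatives. Its change is a small part of the −6.17 of 21ur-884.

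**Figure D3:**
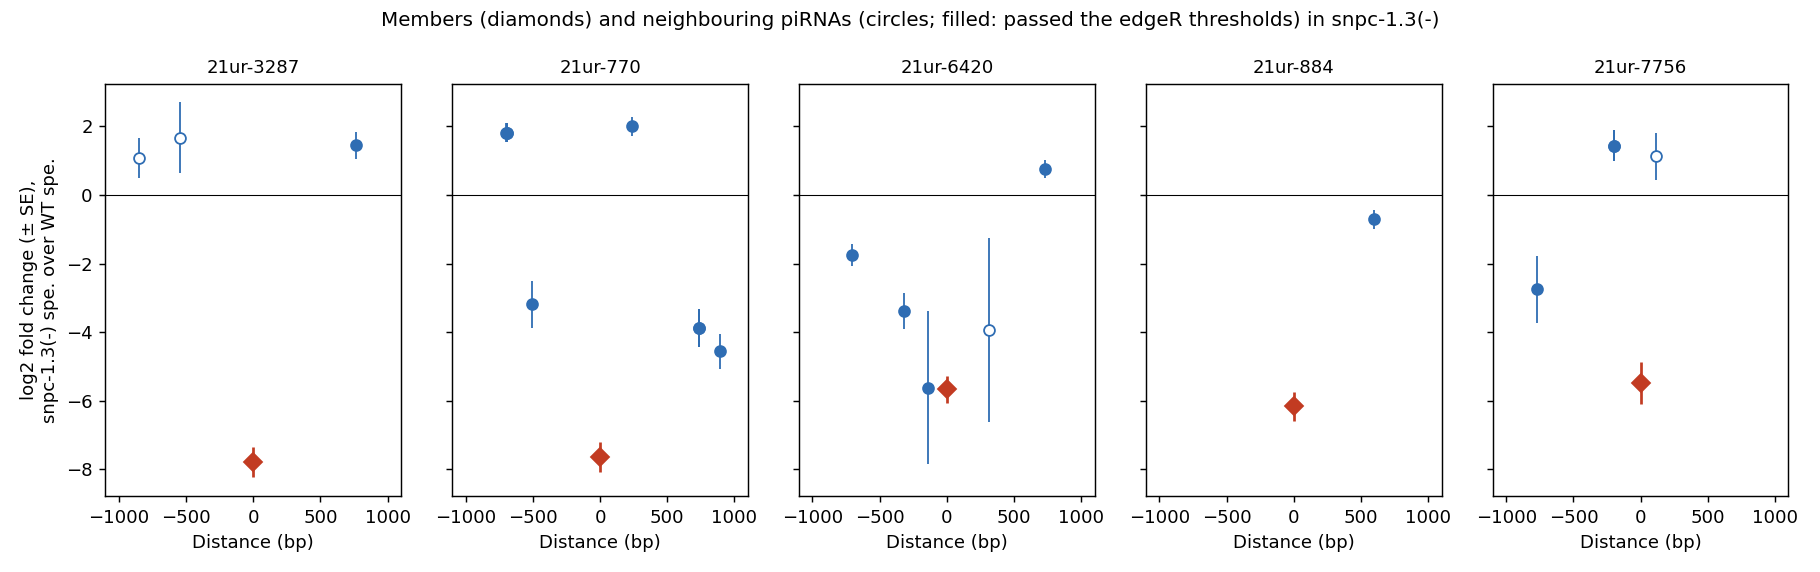
Log2 fold change of *snpc-1.3(-)* over WT spe. (with standard error) of each member (diamond) and of the piRNAs with at least 20 counts within 1 kb of it (circles, filled where they passed edgeR's thresholds), against the distance between 5′ ends in bp. Neighbours of 21ur-770 lie on both sides of 0, from −4.56 to 2.00, and the 3 plotted neighbours of 21ur-3287 lie above 0.

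In *snpc-1.3(2xtbs)*, 5 of the 22 distinct neighbours were higher than in WT oog. in edgeR's test, and the other 17 did not pass. Of these 5, named here after their values were seen, 21ur-8504 kept the call in all 18 alternatives. With miRNA totals as the scale the other 4 lost it, which are 21ur-12867 with 21ur-9234, 21ur-209, 21ur-3304 and 21ur-1439. 21ur-3304 lost it in that setting alone. 21ur-1439 lost it in 6 of 18 alternatives, 21ur-209 in 5, and 21ur-12867 with 21ur-9234 in 4. For each of these, they included fits with a library left out, and for 21ur-1439 and 21ur-12867 with 21ur-9234 also DESeq2. Of all piRNAs tested, 11.3% were called higher and 4.47% lower. The neighbours that rose in *snpc-1.3(-)* did not pass here. On the log2 scale 21ur-3117 stood at −0.09 (edgeR, adjusted p = 0.865) and 21ur-5257 at −0.21 (edgeR, adjusted p = 0.631). 21ur-7276, close to 21ur-770, had 0.58 (edgeR, standard error 0.56, adjusted p = 0.577) and did not pass either, at 3.88 ± 1.32 CPM in *snpc-1.3(2xtbs)*, against 2.82 ± 1.70 CPM in WT oog. (SD, 3 libraries each). 21ur-8504 rose by 1.91 (edgeR, standard error 0.29, adjusted p = 6.93e-09), to 44.3 ± 21.6 CPM, against 12.3 ± 4.75 CPM in WT oog. (SD, 3 libraries each).

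SNPC-1.3 ChIP-seq gives a measure at the same loci that played no part in the choice. The values are CPM of the anti-Flag immunoprecipitation (IP) over CPM of the matched input in the 1 kb bin that holds the 5′ end, which for all 5 also holds the upstream motif. IP libraries held 14980457 to 24896703 counts and inputs 38330920 to 48104586. Bins were listed in the files only where the IP exceeded a constant of 10.5 CPM, so an unlisted bin gives an upper bound and not a value. With 2 replicates per genotype an exact two-sided permutation test cannot go below p = 0.33, and none was made.

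In *snpc-1.3::3xflag* worms all 5 bins were listed in both replicates. The bin of 21ur-6420 had the highest ratio, 2.62 and 2.63, and that of 21ur-770 the next, 2.19 and 2.32. The bins of 21ur-7756 (1.58 and 2.02), 21ur-884 (1.59 and 1.82) and 21ur-3287 (1.55 and 1.48) were lower and close together. Of the 4955 cluster bins listed in both replicates, 19.7% had a ratio of at least 2 (log2 of at least 1) in both, and those of 21ur-770 and 21ur-6420 were among them. By their mean log2 ratio, 3.53% of the cluster bins stood at or above the bin of 21ur-6420, 14.4% at or above that of 21ur-770, and 57.1% at or above that of 21ur-3287. The mean log2 ratio of 21ur-3287, 0.60, was below the median of the cluster bins, 0.70, and above that of chromosome IV bins outside the clusters, 0.11.

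Most bins hold more than the member alone. Annotated 5′ ends numbered 3 in the bin of 21ur-3287, 5 in those of 21ur-770, 21ur-6420 and 21ur-7756, and 1 in that of 21ur-884, which is the member's own. The bin next above 21ur-884 had the higher log2 ratio, 0.96 and 1.12, against 0.66 and 0.86 in its own. Around 21ur-770 the bin 2 below had 1.83 and 1.89, against 1.13 and 1.21 in the member's own.

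In the SNPC-4-depleted worms the bins of 21ur-3287, 21ur-770 and 21ur-6420 were listed in neither replicate, as were 44.2% of these cluster bins. The IP level in *snpc-1.3::3xflag* was at least 1.55 and 1.56 times that bound for 21ur-3287, at least 2.08 and 2.1 times for 21ur-770, and at least 2.63 and 2.87 times for 21ur-6420. The bin of 21ur-884 was listed in 1 SNPC-4-depleted replicate, at a ratio of 0.987 of IP to input, and that of 21ur-7756 in both, at 1.05 and 1.11. Both are below the values in *snpc-1.3::3xflag* given above.

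Against N2, which has no tag, the picture was alike. The bins of 21ur-3287, 21ur-770 and 21ur-6420 were listed in neither N2 replicate, as were 53.8% of the cluster bins, and the *snpc-1.3::3xflag* IP was at least 1.55 and 1.56, 2.08 and 2.1, and 2.63 and 2.86 times the bound. The bins of 21ur-884 and 21ur-7756 were listed in N2 replicate 1 only. There the *snpc-1.3::3xflag* IP level was 1.83 times the N2 level for 21ur-884 and 1.59 times for 21ur-7756, and the N2 ratios of IP to input were 0.918 and 1.01.

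**Figure D4:**
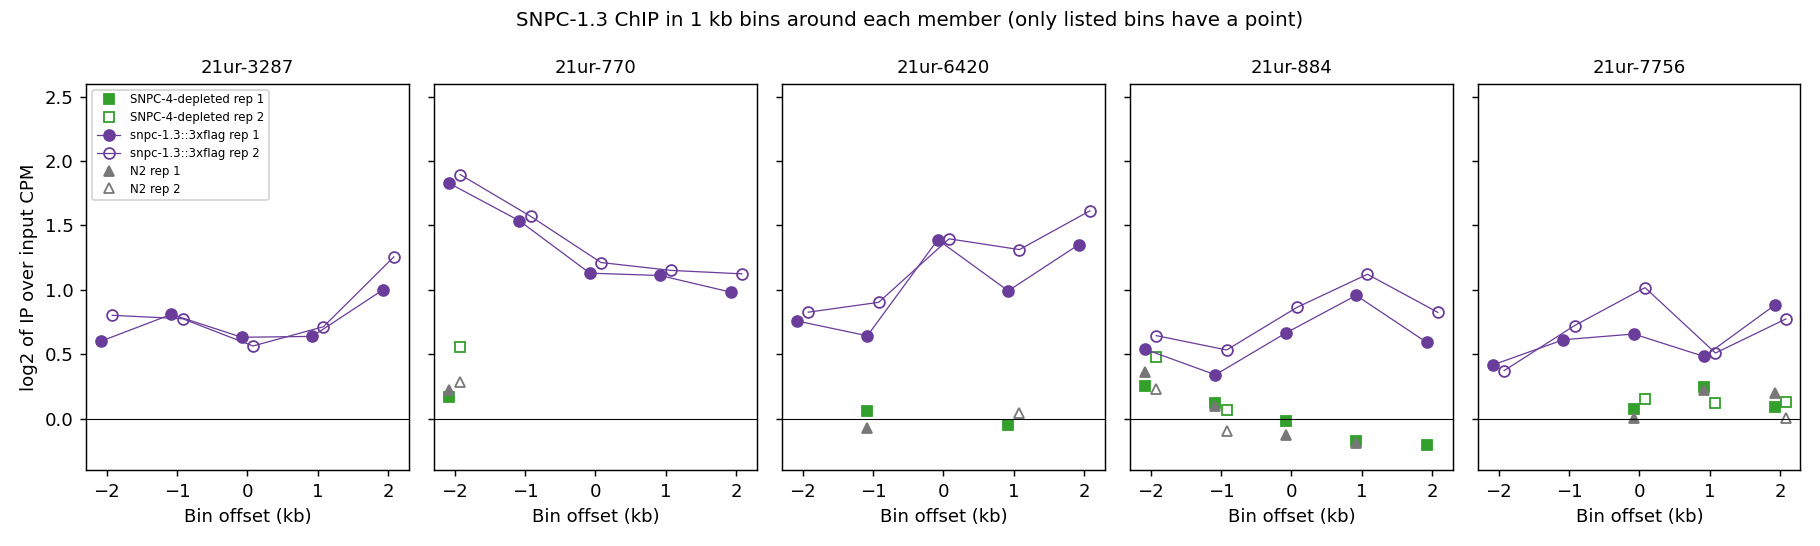
Log2 ratio of IP to input CPM in the 1 kb bin of each member (offset 0) and the 2 bins on each side, for SNPC-4-depleted worms (squares), *snpc-1.3::3xflag* (circles) and N2 (triangles), filled for replicate 1 and open for replicate 2; bins that are not listed have no point. The *snpc-1.3::3xflag* points lie above 0 in all 5 panels, highest at 21ur-6420 among the member bins (1.39 and 1.40).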

How the data were processed

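The authors trimmed small RNA reads (Trimmomatic 0.39), aligned them to WBcel235 without mismatches (Bowtie 1.1.1) and counted them with featureCounts (Subread 1.6.3), versions per the submitters' processing notes. The deposited small RNA counts are raw, and reads that map to several places or overlap several features were counted for each. For ChIP-seq the authors removed duplicates, extended the reads and deposited counts of IP and input in bins of 1 kb. The deposited CPM of a bin adds 1 to the count and divides by the library's total, and the authors left out bins with IP coverage under a constant per file.

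For chromosome IV, 732 annotated piRNAs had no count and 13982 entered edgeR 4.0.16 (R 4.3.3). Its quasi-likelihood test used TMM factors, the older dispersion method and all 4 groups together, without a replicate block. p-values were adjusted by Benjamini-Hochberg over these piRNAs, and calls needed a 1.2-fold change (0.26 on the log2 scale) at an adjusted p of at most 0.05. Male piRNAs are those called higher in WT spe., female piRNAs those called higher in WT oog. The fit was tested on simulated data. The members and all lists were chosen with earlier results of these data known. Besides the members, the text names the study's Taqman piRNAs, the nearest neighbour on each side and the most abundant within 1 kb, the 2 next by p-value in *snpc-1.3(-)* and the 5 of most similar profile. Other neighbours were named after their values were seen, as stated there. DESeq2 1.42.0 and the other alternatives are described in the closing section. Between replicates, chi-square over degrees of freedom was 2.44 to 21.3, more than repeat sequencing of 1 library would give. Such values cannot show that the replicates came from separate cultures.

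A planned edgeR fit of the ChIP bins was not made, since of the 14223 bins listed in all 6 files 0 hold a member, and the bins are given as values. The authors' fold change and log2 fold change columns, their class counts per bin, their normalized count table and the TRA-1 peak lists were not used. Sequences and gene structures come from the RefSeq genome and the Ensembl annotation, both of WBcel235, the build of the files.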

Additional observations from a re-analysis of the deposited data

How the results depend on the processing

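No member changed direction in any of the 3 small RNA comparisons under the 18 alternatives (other scalings, DESeq2, filterByExpr, only the groups compared, a replicate block, each library left out). For *snpc-1.3(2xtbs)* over WT oog., the log2 fold changes were lowest with miRNA totals as the scale: 1.26 for 21ur-3287, 1.13 for 21ur-770, 1.72 for 21ur-6420, 2.08 for 21ur-884 and 2.77 for 21ur-7756. That scale moved the log2 fold changes of all piRNAs by a median per-piRNA difference of −0.53 in this comparison, −0.65 in *snpc-1.3(-)* and −0.87 between the stages. By the same measure RLE moved the last 2 by −0.65 and 0.73, and TMM over all features moved *snpc-1.3(-)* by −0.10. With miRNA totals the count of piRNAs higher in *snpc-1.3(2xtbs)* was 459 in place of 1580, and of those higher in WT spe. than in WT oog. 2222 in place of 3563. Of the piRNAs called in *snpc-1.3(2xtbs)*, 16.9% were higher with miRNA totals and 87.1% with TMM over all features, in place of 71.7%. In *snpc-1.3(-)* this share was 34.2% with miRNA totals and 36.8% with RLE, in place of 51.9%, and between the stages 29.1% and 61.4%, in place of 45.4%. In *snpc-1.3(-)* the neighbour 21ur-4983 was at −0.010 on the log2 scale with miRNA totals, against 0.75 with TMM. Its alternatives, as those of all neighbours, were chosen after seeing the data.

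With each library left out in turn, 1121 to 1633 piRNAs were higher in *snpc-1.3(2xtbs)*, 2610 to 3315 were lower in *snpc-1.3(-)* and 3182 to 3633 were higher in WT spe. than in WT oog.

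Replicate numbers did not pair the samples (correlations of same-numbered deviations from −0.47 to 0.12). With the number as a replicate block, these counts were 1423, 3105 and 3323, in place of 1580, 3313 and 3563.

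Within 5 kb of the members, 33 of 111 distinct sets of counts were lower and 22 higher in *snpc-1.3(-)*, against 8 and 5 of 22 within 1 kb. With overlapping piRNAs counted singly, 29.6% of 142 neighbours were lower and 25.4% higher, against 34.6% and 30.8% of 26 within 1 kb. Of all piRNAs tested, 23.7% were lower and 25.6% higher. All 5 members and 86.1% of all upstream regions had at most 1 mismatch to CNGTTTCA. Among the 3086 male piRNAs called lower in *snpc-1.3(-)* this share was 98.4%. GTTTCA stood at 3 members and in 64.7% of all regions, and a window of 100 nt gave 3 members again. By Spearman's rho, 3 of the 5 most similar piRNAs had a rho of 1, the highest possible, so that ties leave the order by rho undefined. The ChIP fits were not run, nor was their scaling by TMM or the fit without pairing. Counts under 10 in *snpc-1.3(-)* limit how far the depletion of each member can be measured.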
